A study of Mus musculus with 17 samples.

Results

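The genotype by glucose interaction was measured as the glucose response of β cells that lack *Pcbp2* minus the glucose response of control β cells, gene by gene. All 17 RNA-sequencing samples of the series entered the comparison, in 4 groups. Control β cells came from mice with a RIP-Cre transgene, which is driven by the rat insulin promoter, and a Cre-inducible Rosa26 tdTomato reporter. They gave 3 samples at 2.8 mM glucose and 4 samples at 16.7 mM glucose, and the labels call them WT. Pcbp2 βKO β cells carried the same transgene and reporter together with floxed *Pcbp2* alleles, and gave 5 samples at each concentration. All mice were male. In every group, whole islets were held at the stated glucose concentration for 3 days, after which tdTomato+ cells were sorted. Per the study's methods the islets had first recovered for some days at an intermediate glucose concentration. Since RIP-Cre drives both the deletion and the label, a sorted cell is one in which the rat insulin promoter had been active, and not necessarily one that still makes insulin. The comparison asks whether the knockout changes the response of a gene to glucose. On the log2 scale a value above 0 means that the ratio of 16.7 mM to 2.8 mM was larger in Pcbp2 βKO cells, and 22784 of the 55357 genes in the files had enough counts to be tested.

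PCBP2 is an RNA-binding protein that recognises poly(C) stretches and acts on the stability, splicing and translation of its target messages. β cells take up glucose in proportion to its concentration in blood, and its metabolism closes potassium channels, admits calcium and releases insulin. When glucose stays high for days, β cells also change their transcripts, with more insulin mRNA and more of the genes that respond to carbohydrate, calcium and cAMP. A difference of differences carries the error of all 4 groups, so that it is the least precise contrast of a design like this one.

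The libraries held between 47385513 and 82419400 estimated counts. *Pcbp2* was lower in each of the 10 knockout samples than in each of the 7 control samples. At 2.8 mM the control samples held 63.4, 73.4 and 50.7 CPM (counts scaled to the size and composition of the library) and the knockout samples 19.2, 17.5, 16.8, 15.5 and 18.2. At 16.7 mM the control samples held 35.0, 45.4, 44.4 and 36.7 CPM and the knockout samples 10.03, 5.81, 6.39, 8.48 and 7.61. *Pcbp2* fell with glucose in both genotypes, by 0.63 in control and by 1.19 in knockout cells on the log2 scale. What the remaining *Pcbp2* reads of knockout cells come from was not tested. On the first principal component, which held 30% of the variance, 3 samples at 16.7 mM stood away from their groups. These were control replicate 4, at 9.9 against 97.1 to 99.1, and knockout replicates 4 and 5, at 21.4 and 33.2 against 90.9 to 95.9. Results are therefore also given without these 3 samples, an alternative that was chosen after seeing the data. Summed over 4 macrophage markers, the level was 18.4 to 68.5 CPM in control cells at 2.8 mM and 1.94 to 15.5 CPM at 16.7 mM, against 27.1 to 165 CPM and 2.18 to 15.3 CPM in knockout cells. Summed over 5 α cell markers, it was 638 to 2567 and 262 to 1463 CPM in control cells, and 1473 to 9197 and 174 to 1322 CPM in knockout cells. The 4 δ cell markers summed to 251 to 391 and 148 to 336 CPM in control cells and to 481 to 1320 and 198 to 566 CPM in knockout cells, and the 2 PP cell markers to 1111 to 1208 and 369 to 999 CPM and to 1431 to 7428 and 470 to 1456 CPM. All 4 of these sums had their highest median in knockout cells at 2.8 mM. The 4 ductal markers did not, with 474 to 543 and 413 to 1183 CPM in control cells. In knockout cells the ductal markers summed to 451 to 565 and 384 to 595 CPM. Their highest median, 683 CPM, was in control cells at 16.7 mM. The 4 stellate cell markers summed to at most 1.23 CPM in any sample. With glucose, 4 of 4 macrophage markers were called lower in knockout cells and 1 of 4 in control cells. So were 2 and 0 of 4 tested α cell markers, 2 and 1 of 4 δ cell markers and 2 and 0 of 2 PP cell markers. Over all genes tested, 10.4% were called lower in knockout cells and 6.69% in control cells. The knockout groups hold more samples, so these counts do not compare the genotypes. None of these markers was called for the interaction. The part of these cell types in the results below was not tested. Of 6 acinar markers 5 were under 0.5 CPM in every sample, as were the endothelial markers *Cdh5*, *Kdr* and *Plvap*. The 8 β cell markers summed to 66592 CPM or more in every sample. In bulk libraries, fewer cells of a type and less RNA per cell cannot be told apart.

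In the fit that did not pair samples by replicate number, a single gene of the 22784 passed the test for the interaction, which is 0.00439%. It was *Ins1*, 1 of the 2 insulin genes of the mouse. No gene was called with a negative interaction, which means a lower ratio of 16.7 to 2.8 mM in knockout cells, whether a smaller rise or a larger fall. Limma-voom called none either, and DESeq2 called 7. A call means a change of more than 1.5-fold with a Benjamini-Hochberg adjusted p under 0.05 in the quasi-likelihood test of edgeR. At an unadjusted p under 0.05 there were 1042 genes, or 4.57% of those tested, of which 646 had a positive interaction and 396 a negative one. The count depended on whether samples were paired by replicate number. With the replicate number as a block within each genotype 17 genes were called, 11 positive and 6 negative, and with 1 block shared by both genotypes 13, of which 10 and 3. *Ins1*, *Ptger3*, *Fmo1*, *Kcnf1*, *Csf2rb*, *Rdh16f1*, *Ang*, *Baiap3*, *4933428C19Rik*, *Bambi-ps1*, *Gm44418* and *Rps13-ps1* were called in both of these fits. Below, a gene is said to be called or not from the fit without the block. The median interaction over all genes was -0.0088 on the log2 scale. Neither the labels nor the study's text say whether replicates came from separate animals, so these p-values measure the spread between samples, which may be technical.

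The rarity of calls has to be read against the precision, given here for the fit without the replicate block. The median standard error of the interaction was 0.493 on the log2 scale, against 0.382 for the glucose response in control cells and 0.316 in knockout cells. For 3014 genes, or 13.2%, the 95% interval of the interaction lay wholly within 1.5-fold in either direction. For 11210 genes, or 49.2%, the interval reached beyond 1.5-fold both upwards and downwards. In this fit, neither a clear gain nor a clear loss of response could be seen for these genes. Among the 10014 genes with a mean of at least 5 CPM the shares were 30.0% and 15.8%.

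*Ins1* lies at chr19:52252735-52253914 on the plus strand of GRCm39 and *Ins2* at chr7:142232393-142297118 on the minus strand, the latter span including long transcripts that run past the insulin gene itself. Both encode preproinsulin. They are shown because the only called gene has a near copy, and the measurement depends on telling them apart. Over 324 aligned coding bases they share 300, or 92.6%. The first 60 coding bases encode most of the signal peptide, which guides preproinsulin into the secretory pathway and is then removed. They lie at chr19:52253062-52253121 and chr7:142233211-142233270, and are printed in coding direction with the 10 differing bases in capitals:
Ins1: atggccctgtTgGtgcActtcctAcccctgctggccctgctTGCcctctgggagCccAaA
Ins2: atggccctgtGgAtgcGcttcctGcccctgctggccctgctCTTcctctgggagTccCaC
Between the reference transcripts of GENCODE M39, 47 words of 31 bases were shared, which is 4.6% of those of *Ins1* and 10.7% of those of *Ins2*. Kallisto assigns reads by matching such short words, so most of either transcript is told apart by sequence, and reads that fall wholly within the shared words are divided by its model.

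*Ins1* rose with glucose in both genotypes, from a far lower level in the knockout. At 2.8 mM the control samples held 10044, 8327 and 13605 CPM of *Ins1*, and the knockout samples 1172, 1751, 1064, 967 and 1516 CPM. At 16.7 mM the control samples held 99392, 79947, 67437 and 40714 CPM, and the knockout samples 68665, 53988, 70238, 52934 and 52818 CPM. At 2.8 mM every knockout sample was below every control sample, whereas at 16.7 mM the genotypes overlapped. The mean of the knockout was 0.121 of that of the control at 2.8 mM and 0.831 of it at 16.7 mM. The glucose response was 2.75 ± 0.30 (SE) in control cells and 5.53 ± 0.28 in knockout cells on the log2 scale. Their difference, 2.78 ± 0.36, had a Benjamini-Hochberg adjusted p of 0.00902 in the quasi-likelihood test of edgeR, and its 95% interval ran from 2.02 to 3.53. The mean ratio of 16.7 to 2.8 mM was 46.2 in knockout cells and 6.74 in control cells, 6.85 times larger. On the scale of CPM itself, the gain of *Ins1* in knockout cells minus that in control cells was -2779 ± 13015 CPM (SE), a difference within its error.

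*Ins2* and *Iapp*, which encodes amylin, the peptide released together with insulin, gave values for comparison and were chosen after the values of *Ins1* had been seen. *Ins2* held 82305, 81245 and 76095 CPM in control cells at 2.8 mM and 57555, 46813, 41860, 40433 and 85258 CPM in knockout cells. At 16.7 mM it held 341515, 263983, 221825 and 180258 CPM in control cells and 295574, 243333, 293742, 239320 and 260005 CPM in knockout cells. The genotypes overlapped at both concentrations, at 2.8 mM because of knockout replicate 5. The interaction of *Ins2* was 0.64 ± 0.34 (SE) and that of *Iapp* 0.42 ± 0.45 on the log2 scale, and neither was called. The *Ins1* share of the counts of both insulin genes followed the same order as *Ins1* itself. It was 11.8% ± 3.04 (SD, n = 3) in control cells at 2.8 mM and 21.9% ± 2.33 (n = 4) at 16.7 mM, and 2.43% ± 0.716 (n = 5) and 18.3% ± 0.915 (n = 5) in knockout cells. The share is not corrected for transcript length, so it compares samples and not the genes. In TPM, Kallisto's abundance corrected for length, the mean shares were 3.53% and 7.39% in control cells and 0.669% and 5.83% in knockout cells. Such shares depend on the annotated lengths, which in GENCODE M39 are 1062 bases for the *Ins1* reference transcript and 469 for that of *Ins2*. Whether the sequenced *Ins1* message is that long was not tested.

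**Figure D1:**
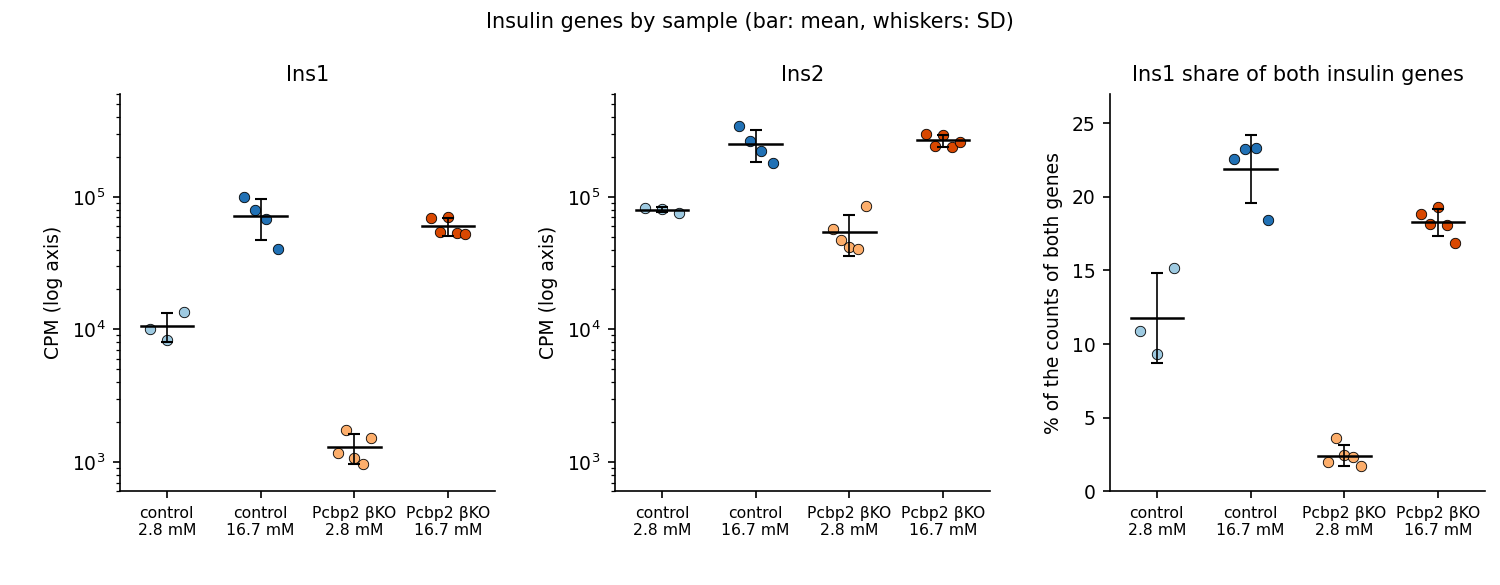
CPM of *Ins1* and *Ins2* on log axes, and the *Ins1* share of the counts of both genes in percent, for each sample (points) of the 4 groups, with the mean (bar) and SD (whiskers). The 5 knockout samples at 2.8 mM lie between 967 and 1751 CPM of *Ins1*, below all 3 control samples, while the groups overlap at 16.7 mM.

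The call for *Ins1* held in 28 of 29 refits of the data with other scalings, filters, tests or samples. The exception was the fit without control replicate 3 at 2.8 mM, with an interaction of 2.56 and an adjusted p of 0.0523 by edgeR with Benjamini-Hochberg adjustment. This sample held the most *Ins1* of its group. Over the 17 fits that left out 1 sample each, the interaction ranged from 2.56 to 2.97. Without the 3 samples that lay apart it was 2.67, with an adjusted p of 0.0103 by the same test, and *Rdh16f1*, a retinol dehydrogenase family gene, was then also called.

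Below *Ins1*, the genes of smallest p in each direction were named although they were not called. *Ptger3* encodes a prostaglandin E2 receptor that lowers cAMP. It held 14.4, 5.52 and 12.8 CPM in control cells at 2.8 mM and 0.346, 0.680, 0.541, 1.04 and 0.450 CPM in knockout cells. At 16.7 mM it held 9.92, 7.20, 19.2 and 15.7 CPM in control cells and 6.98, 5.43, 4.76, 10.5 and 15.6 CPM in knockout cells. As with *Ins1*, the genotypes were separate at 2.8 mM and overlapped at 16.7 mM. The response was 0.25 ± 0.45 (SE) in control cells and 3.84 ± 0.42 in knockout cells, and only that in knockout cells was called. Their difference was 3.58 ± 0.59, with an adjusted p of 0.117 by edgeR with Benjamini-Hochberg adjustment, so it missed the threshold. It passed in 6 of 29 refits. The other genes with a positive interaction were *4930470P17Rik*, a protein-coding gene of at most 0.879 CPM in any sample, *Bambi-ps1*, a processed pseudogene, and *Gm44418*, a long noncoding RNA, with adjusted p-values of 0.161, 0.217 and 0.217 by the same edgeR test. *Gm44418* had no count in any of the 5 knockout samples at 2.8 mM, and 0.593 to 3.67 CPM in the control samples. It reached 0.0482 to 0.530 CPM in knockout cells at 16.7 mM.

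Among negative interactions, *Csf2rb* was 1 of the 5 genes of smallest p. It encodes the signalling subunit shared by the receptors for interleukin 3, interleukin 5 and GM-CSF. It held 7.92, 2.55 and 15.98 CPM in control cells at 2.8 mM and 34.1, 37.6, 102 and 7.26 CPM at 16.7 mM, where the sample that lay apart was the lowest. Knockout samples held 0.480, 0.387, 0.859, 0.919 and 1.06 CPM at 2.8 mM, and 0.0855, 0.0963, 0.293, 0.147 and 0.373 CPM at 16.7 mM. All knockout samples were thus below all control samples, and *Csf2rb* rose by 2.35 in control cells and fell by 1.86 in knockout cells on the log2 scale, both called. The interaction was -4.21 ± 0.95 (SE), with an adjusted p of 0.401 by edgeR with Benjamini-Hochberg adjustment, and without the 3 samples apart it was -4.91 with an adjusted p of 0.0921. *Csf2rb* was called in 5 of 29 refits, among them both fits with the replicate block, at adjusted p-values of 0.00303 and 0.039 by edgeR. *AW551984*, a protein-coding gene, had an interaction of -1.92 ± 0.43. It held 1.95 to 2.48 CPM in knockout cells at 16.7 mM, below all samples of the other groups. The remaining 3 were *Gm14165* and *Rps13-ps1*, both processed pseudogenes, and the microRNA gene *ENSMUSG00002075372*, which held at most 1.06 CPM in any sample. Reads of a processed pseudogene cannot be told apart from those of its parent gene where the sequences match. *Rps13-ps1* held 25.5 to 87.2 CPM in control samples of either glucose concentration and at most 0.447 CPM in any knockout sample.

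Of the 50 genes of smallest interaction p, 40 had a positive interaction. In 39 of these 40 the mean of the knockout was below that of the control at 2.8 mM, and in 17 it was below at 16.7 mM. This describes genes picked for their interaction and tests nothing further. A few more such genes were named after their values had been seen. *Fmo1*, a flavin-containing monooxygenase, held 70.5 to 297 CPM in control cells at 2.8 mM and 107 to 387 CPM at 16.7 mM, against 0.798 to 1.99 and 6.68 to 38.1 CPM in knockout cells. *Matn2*, which encodes the extracellular matrix protein matrilin 2, held 85.8 to 321 and 160 to 473 CPM in control cells, and 4.80 to 7.89 and 28.7 to 65.5 CPM in knockout cells. Both genes were called in knockout cells, at 3.56 and 2.69 on the log2 scale, and not in control cells, at 0.18 and 0.45. Their knockout samples stayed below all control samples at both concentrations, and the interactions of 3.38 ± 0.69 for *Fmo1* and 2.23 ± 0.53 for *Matn2* were not called. With the replicate block *Fmo1* was called, at adjusted p-values of 0.00477 and 0.00285 by edgeR.

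**Figure D2:**
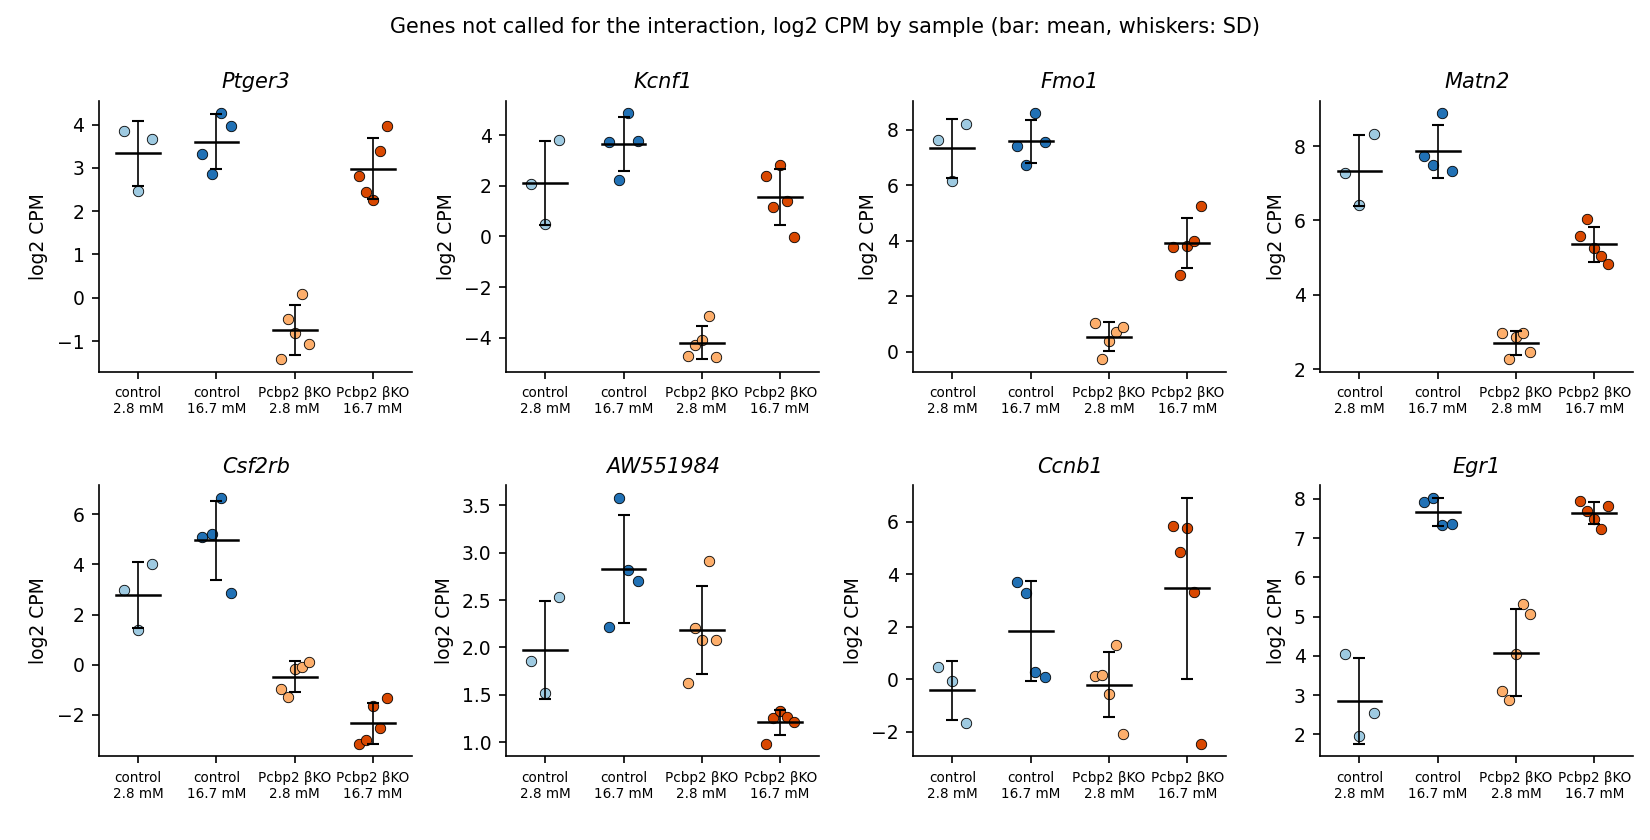
Log2 CPM of 8 genes for each sample (points) of the 4 groups, with the mean (bar) and SD (whiskers). None of the 8 was called for the interaction in the fit without the replicate block. In *Ptger3* the genotypes are separate at 2.8 mM and overlap at 16.7 mM, in *Fmo1* and *Matn2* they are separate at both, and *Csf2rb* rises with glucose in control cells and falls in knockout cells, with interactions of 3.58 for *Ptger3* and -4.21 for *Csf2rb*.

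The direction of an interaction depends on the scale for genes that differ between genotypes at 2.8 mM. Over the 22784 genes tested, the sign of the log2 interaction was opposite to the sign of the difference in CPM for 2156 genes, or 9.46%. Among genes called in both genotypes it was opposite for 606, or 23.5%. An example is *Kcnf1*, which encodes a potassium channel subunit that forms no channel by itself. It held 4.14, 1.38 and 13.8 CPM in control cells at 2.8 mM and 13.1, 4.72, 29.2 and 13.8 CPM at 16.7 mM. In knockout cells it held 0.0112, 0.0235, 0.0318, 0.0867 and 0.00999 CPM at 2.8 mM and 5.13, 2.21, 7.10, 2.64 and 0.964 CPM at 16.7 mM. The mean gain of the knockout minus that of the control was -5.18 ± 6.44 CPM (SE), while the log2 interaction of *Kcnf1* was 5.64 ± 1.09, with an adjusted p of 0.235 by edgeR with Benjamini-Hochberg adjustment, and 0.00477 and 0.00285 with the replicate block. *Kcnf1* belongs to 11 genes that the study named for a blunted rise with glucose in the knockout. All 11 gained fewer CPM in knockout cells, whereas on the log2 scale 7 were below 0 and 4 above, with a median of -0.31. None was called for the interaction without the block. The list was chosen by the study on these samples, so it is not independent evidence of its direction. Its members *Crem*, *Prkar1a* and *Chgb*, which encode a cAMP-responsive transcription factor, a regulatory subunit of protein kinase A and chromogranin B, had log2 interactions of -0.85 ± 0.53, -0.31 ± 0.29 and -0.13 ± 0.55. *Slc26a3*, which encodes an anion exchanger, rose by 2.81 in control cells and was not called in knockout cells at 0.55, with an interaction of -2.25 ± 0.80. *Ntrk2*, which encodes the receptor for brain-derived neurotrophic factor, stood at 1.31 ± 0.37.

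Glucose changed many genes in either genotype, and mostly the same way. In control cells 3153 genes were called, or 13.8% of those tested, with 1629 higher (7.15%) and 1524 lower (6.69%) at 16.7 mM. Fitted with the replicate number as a block, which pairs the control samples, the count was 5024. Leaving out control replicate 1 or 2 at 2.8 mM lowered it to 1990 or 1382. In knockout cells 5431 genes were called, or 23.8%, with 3056 higher (13.4%) and 2375 lower (10.4%). The groups are larger in the knockout, with 5 samples each, so these counts do not compare the strength of the responses. Of the 3153 genes called in control cells, 2579 (81.8%) were also called in knockout cells, and they made up 47.5% of the knockout calls. In 2576 of the 2579 the direction was the same. Of the 574 genes called in control cells alone, 543 (94.6%) had the same sign in knockout cells, and of the 2852 called in knockout cells alone, 2692 (94.4%) had the same sign in control cells. Without the 3 samples apart, 4898 genes were called in control cells and 6390 in knockout cells, and 3917 in both, of which 3911 in the same direction.

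The responses were also correlated across genes, more closely among genes with more counts. A correlation does not by itself show equal sizes. Across the 22784 genes Pearson's r between the responses of both genotypes was 0.682 and Spearman's rho was 0.678. Across the 10014 genes with a mean of at least 5 CPM they were 0.900 and 0.889, and across the 2579 genes called in both genotypes r was 0.939. Genes are not independent replicates, and the responses share no sample but do share library preparation, annotation and any gene-wise bias, so these values describe and do not test. Among the genes of at least 5 CPM, the slope that treats both responses alike was 1.13, with the knockout response the larger in absolute size in 57.5% of genes. Among genes called in both, that slope was 1.01 and the median absolute response was 1.1 in control and 1.17 in knockout cells on the log2 scale. These genes were picked for a clear response in each genotype, which by itself favours similar sizes and a high r. Among the 5431 genes called in knockout cells the same slope was 1.31, with the knockout response larger in 76.9%. Among the 3153 called in control cells it was 0.920, with the knockout response larger in 47.3%.

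**Figure D3:**
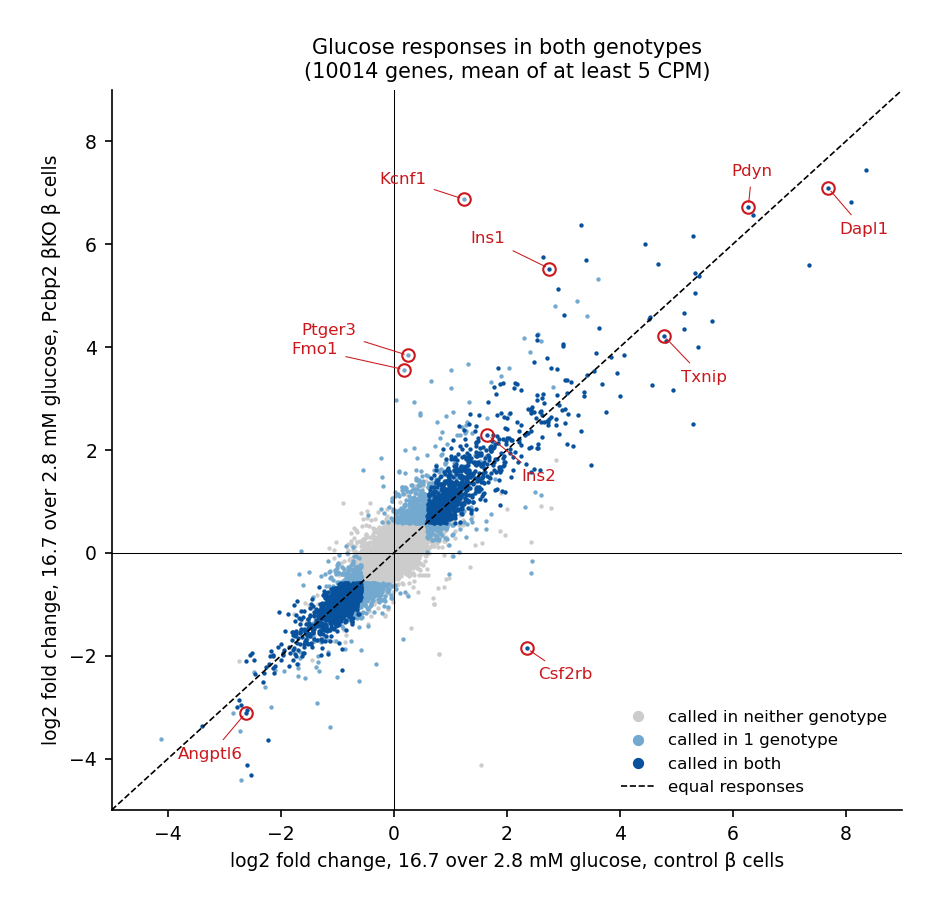
Log2 fold change of 16.7 mM over 2.8 mM glucose in control cells (horizontal) and in Pcbp2 βKO cells (vertical) for the 10014 genes with a mean of at least 5 CPM, coloured by whether they were called in both, 1 or neither genotype. Points follow the dashed line of equal responses with a Pearson's r of 0.900, and *Ins1*, *Ptger3*, *Fmo1*, *Kcnf1* and *Csf2rb* lie far from it.

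The genes with the largest shared rise were *Gm9195*, a predicted gene, *Dapl1*, *C1qtnf1*, which encodes a secreted protein of the C1q and TNF family, *Slc5a10*, a sodium-coupled sugar transporter, and *Pdyn*, the precursor of dynorphin peptides. *Pdyn* held 4.46, 6.92 and 5.44 CPM in control cells at 2.8 mM and 623, 654, 322 and 140 CPM at 16.7 mM. In knockout cells it held 2.00, 3.91, 2.35, 6.45 and 3.73 CPM and 443, 504, 663, 297 and 45.0 CPM. The genotypes overlapped at both concentrations, and in both the samples that lay apart were the lowest at 16.7 mM. The rise of *Pdyn* was 6.28 in control and 6.73 in knockout cells on the log2 scale, and the difference was 0.46 ± 0.79 (SE). *Txnip*, which encodes a thioredoxin-binding protein and is a classical target of the carbohydrate sensor ChREBP, rose by 4.78 and 4.22. Its difference of -0.56 ± 0.39 was not called.

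The largest shared falls were those of *Mslnl*, *Stbd1*, *Pcp4*, *Steap1* and *Angptl6*, the last encoding a secreted angiopoietin-like protein. *Stbd1*, which encodes a glycogen-binding protein, held 166, 251 and 146 CPM in control cells at 2.8 mM and 12.04, 10.9, 8.08 and 78.4 CPM at 16.7 mM. In knockout cells it held 152, 253, 133, 182 and 165 CPM and 11.1, 10.3, 6.99, 76.8 and 6.24 CPM. Replicate 4 was the highest at 16.7 mM in both genotypes. The fall was 2.77 in control cells and 2.99 in knockout cells on the log2 scale, and without the 3 samples apart *Stbd1* fell by 4.20 and by 4.26. The 5 interactions ranged from -0.49 for *Angptl6* to 0.03 for *Mslnl*.

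Opposite calls in both genotypes were made for 3 genes. Besides *Csf2rb* these were *BB557941*, a long noncoding RNA that fell by 1.77 in control cells and rose by 1.33 in knockout cells on the log2 scale, and *Gm10925*, an unprocessed pseudogene whose control mean at 16.7 mM rested on 1 of 4 samples, at 16.8 CPM against at most 0.0178 in the others. The adjusted p of the interaction was 0.358 for *BB557941* and 0.566 for *Gm10925* by edgeR with Benjamini-Hochberg adjustment.

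Gene lists were described by their counts beside the background of 7.15% and 6.69% of genes called higher and lower in control cells, and 13.4% and 10.4% in knockout cells. Among 16 insulin and β cell identity genes, 8 were called higher in control cells and 12 in knockout cells, with all 8 shared. The median interaction was 0.41, against -0.0088 over all genes, with 13 members above 0 and 3 below, and *Ins1* was the only one called. *Mafa*, a transcription factor of mature β cells, held 4.47, 1.62 and 4.31 CPM in control cells at 2.8 mM and 15.7, 8.68, 15.9 and 12.6 CPM at 16.7 mM. In knockout cells it held 2.06, 0.587, 2.30, 2.01 and 0.719 CPM at 2.8 mM and 10.7, 6.32, 14.0, 13.5 and 30.9 CPM at 16.7 mM, the last from a sample that lay apart. Its interaction was 1.37 ± 0.66 (SE), and 0.79 without the 3 samples. *Slc2a2*, the main glucose transporter of mouse β cells, and *G6pc2*, a glucose-6-phosphatase of the islet, stood at 1.36 ± 0.55 and 1.07 ± 0.52, and neither was called. Among 15 genes of prohormone processing and granule proteins, 5 were called higher in control cells and 10 in knockout cells, with a median interaction of -0.02.

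Among the lists not taken from the study, cell cycle genes had the largest median interaction, 0.88, with 25 of 26 members above 0. From these samples the study reported gene sets of cell replication as higher in the knockout at high glucose. This list is therefore not independent evidence. In knockout cells 21 of the 26 genes were called higher at 16.7 mM and in control cells 4, yet none was called for the interaction. *Mki67*, a marker of cycling cells, held 0.914, 0.503 and 0.328 CPM in control cells at 2.8 mM and 12.2, 6.15, 2.22 and 1.47 CPM at 16.7 mM. In knockout cells it held 1.24, 0.551, 0.636, 1.25 and 0.360 CPM at 2.8 mM and 32.9, 23.9, 54.2, 8.48 and 0.218 CPM at 16.7 mM. The groups at 16.7 mM overlapped, and the spread within the knockout group ran from the lowest to the highest value of the gene. Its interaction was 1.66 ± 1.28 (SE). *Ccnb1* and *Foxm1*, which encode a mitotic cyclin and a transcription factor of the G2 and M phases, stood at 1.95 ± 1.48 and 2.41 ± 1.26. Without the 3 samples apart, 18 of the 26 genes were called higher in control cells and 22 in knockout cells, so that the gap between these counts narrowed. The median interaction was then 1.15, and 25 members were again above 0. With DESeq2 on the same samples, the member *Tyms* was called, at 0.986 with an adjusted p of 0.0216 by its Wald test. Cell division genes outside the list, such as *Cdc25c*, *Cenpe* and *Kif20b*, were called there with a positive interaction too. In all, 127 genes were called there with a positive interaction and 38 with a negative one, the latter including *Tph1* at -2.89 and *Txnip* at -1.03. That fit was chosen after the data had been seen. The study named 7 cell division genes as higher in the knockout, of which *Ccne2* is also among the 26. They were chosen on these samples and so are not independent evidence. Of the 7, 6 were above 0, with a median of 0.89 and none called.

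Immediate-early genes, which are switched on by calcium and cAMP within minutes of a stimulus, lay on the other side. Of 19 tested, 13 were called higher and 1 lower in control cells, and 12 higher and 1 lower in knockout cells, with 13 genes called in both in the same direction. The median rise was 2.06 in control cells and 1.61 in knockout cells on the log2 scale, and 16 of 19 interactions were below 0 with a median of -0.26. *Egr1*, a zinc finger transcription factor, held 16.6, 3.84 and 5.78 CPM in control cells at 2.8 mM and 8.54, 7.27, 16.4, 39.7 and 33.5 CPM in knockout cells. At 16.7 mM it held 243, 261, 161 and 165 CPM in control cells and 247, 207, 179, 150 and 224 CPM in knockout cells. The genotypes overlapped at both concentrations, and the interaction was -1.31 ± 0.67 (SE). *Npas4*, an activity-dependent transcription factor, responded by 4.39 in control cells, which was called, and by 1.39 in knockout cells, which was not, and its interaction was not called. The summed level of the list at 2.8 mM was 278 to 385 CPM in control cells and 295 to 700 CPM in knockout cells, the latter highest in replicate 5.

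Most ribosomal protein genes fell in both genotypes. Of 80 tested, 70 were called lower in control cells and 76 in knockout cells, and the 70 were called in both. The median fall was 1.09 and 1.22 on the log2 scale, and the median interaction was -0.15, with 67 members below 0 and none called. For 16 of the 80 the 95% interval of the interaction lay within 1.5-fold. The sign of the median was positive in 1 of 29 refits, where it reached 0.02. Summed over the list, the level was 16062 to 25475 CPM in control cells and 20045 to 24499 CPM in knockout cells at 2.8 mM, and 9143 to 12446 and 7778 to 12052 CPM at 16.7 mM. The groups were separate between glucose concentrations and overlapped between genotypes.

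Of 12 genes of the prolactin and growth hormone response, 4 were called higher and 3 lower in control cells, and 7 and 3 in knockout cells. *Tph1*, the enzyme that starts serotonin synthesis outside the brain, held 7.07, 6.76 and 11.5 CPM in control cells at 2.8 mM and 232, 406, 661 and 34.5 CPM at 16.7 mM. In knockout cells it held 0.0559, 0.0587, 0.159, 0.173 and 0.0300 CPM at 2.8 mM and 0.547, 0.883, 0.477, 0.0134 and 0.707 CPM at 16.7 mM. Every knockout sample was below every control sample, and *Tph1* was called higher with glucose in both genotypes, at 5.30 and 2.51 on the log2 scale. The interaction was -2.80 ± 1.19 (SE). Its relative *Tph2* moved the other way, with an interaction of 2.67 ± 0.86, from at most 0.243 CPM in knockout cells at 2.8 mM. *Ovol2*, a zinc finger transcription factor, stood at 1.74 ± 0.44. None of the 3 was called, and the list's median was -0.03.

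In the other lists the counts were as follows, with none called for the interaction. For ChREBP and its targets, 9 of 18 were called higher in control cells and 12 in knockout cells, with a median interaction of 0.06. *Gpd1*, a glycerol-3-phosphate dehydrogenase, stood at 0.81 ± 0.29, while members of the list ranged from -1.85 to 1.31. For cholesterol synthesis, 14 of 22 were called higher in control and 15 in knockout cells, 12 of them in both, with a median of -0.06. *Fdps*, which makes farnesyl diphosphate, stood at 0.58 ± 0.21, while members of the list ranged from -1.005 to 1.32. For glucose uptake and glycolysis, 16 of 20 interactions were above 0 with a median of 0.17, and 2 and 7 genes were called higher. For endoplasmic reticulum chaperones and the unfolded protein response the median was 0.10, with 5 and 9 of 20 called higher. *Ern1*, which encodes the stress sensor IRE1, fell by 0.63 in knockout cells, was not called in control cells at 0.02, and had an interaction of -0.65 ± 0.29.

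For cAMP signalling the median interaction was -0.20, with 10 of 26 members above 0 and 16 below, and 8 and 9 genes were called higher with 3 and 4 lower. For ion channels the median was 0.09 over 28 genes, with 6 and 9 called higher. Of 20 exocytosis genes, 12 were above 0, with *Sytl4*, which encodes granuphilin, a protein that docks insulin granules, at 1.11 ± 0.30. Members of this list ranged from -1.26 to 1.64. The integrated stress response had 4 and 6 of 20 genes called lower and a median of 0.04. Interferon response and antigen presentation had 3 and 6 of 21 called lower and a median of -0.07, and 11 immaturity and disallowed genes, which mature β cells keep low, had a median interaction of 0.08 although the median response was lower in knockout cells. In the poly(C)-binding protein family, *Pcbp2* stood at -0.56 ± 0.23 and the other members between -0.10 for *Pcbp4* and 0.15 for *Pcbp3*. The other lists that the study named on these samples were 4 genes lower in the knockout mainly at high glucose, all below 0 with a median of -1.21 as their choice implies, and 16 genes lower at either concentration, with a median of -0.08. In all 29 refits, the medians of the insulin and identity, cell cycle and exocytosis lists stayed above 0, the last from 0.02 to 0.19. The same held for the cell division genes named by the study. Medians of the immediate-early and cAMP lists stayed below 0. So did those of the study's genes with a blunted rise and of its genes lower mainly at high glucose.

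**Figure D4:**
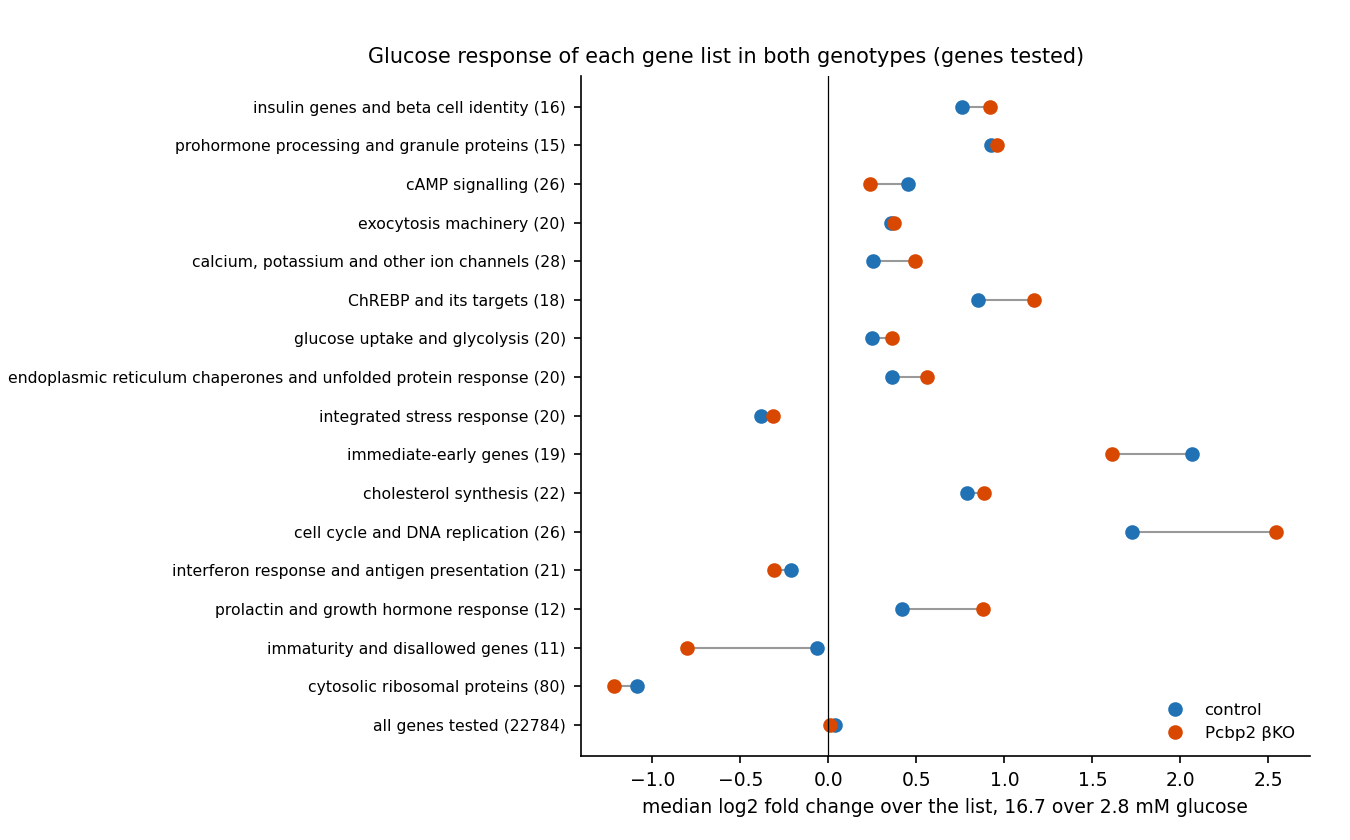
Median log2 fold change of 16.7 mM over 2.8 mM glucose for each gene list (number of genes tested in brackets) in control cells and in Pcbp2 βKO cells, joined by a line. The list medians share their sign in both genotypes in every list shown, with the widest gaps in cell cycle genes (1.72 and 2.54) and in immaturity and disallowed genes (-0.06 and -0.80).

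The number of genes called for the interaction depended on the test, the filter and the replicate block given above, and not on the scaling. It was 1 under median-ratio, upper-quartile and total-count scaling, with limma-voom and with the stricter filter. It was 15 with no filter on low counts and 34 with DESeq2's Wald test, of which 27 were higher and 7 lower. *Ins1* was among the genes called in each of these fits. Among the 29 alternatives other than those without all 3 samples apart, the next genes were *Ptger3* and *Rdh16f1*, called in 5 each. *Rdh16f1* had no count in any knockout sample at 2.8 mM, and 2.85 to 7.55 CPM in control samples there.

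**Figure D5:**
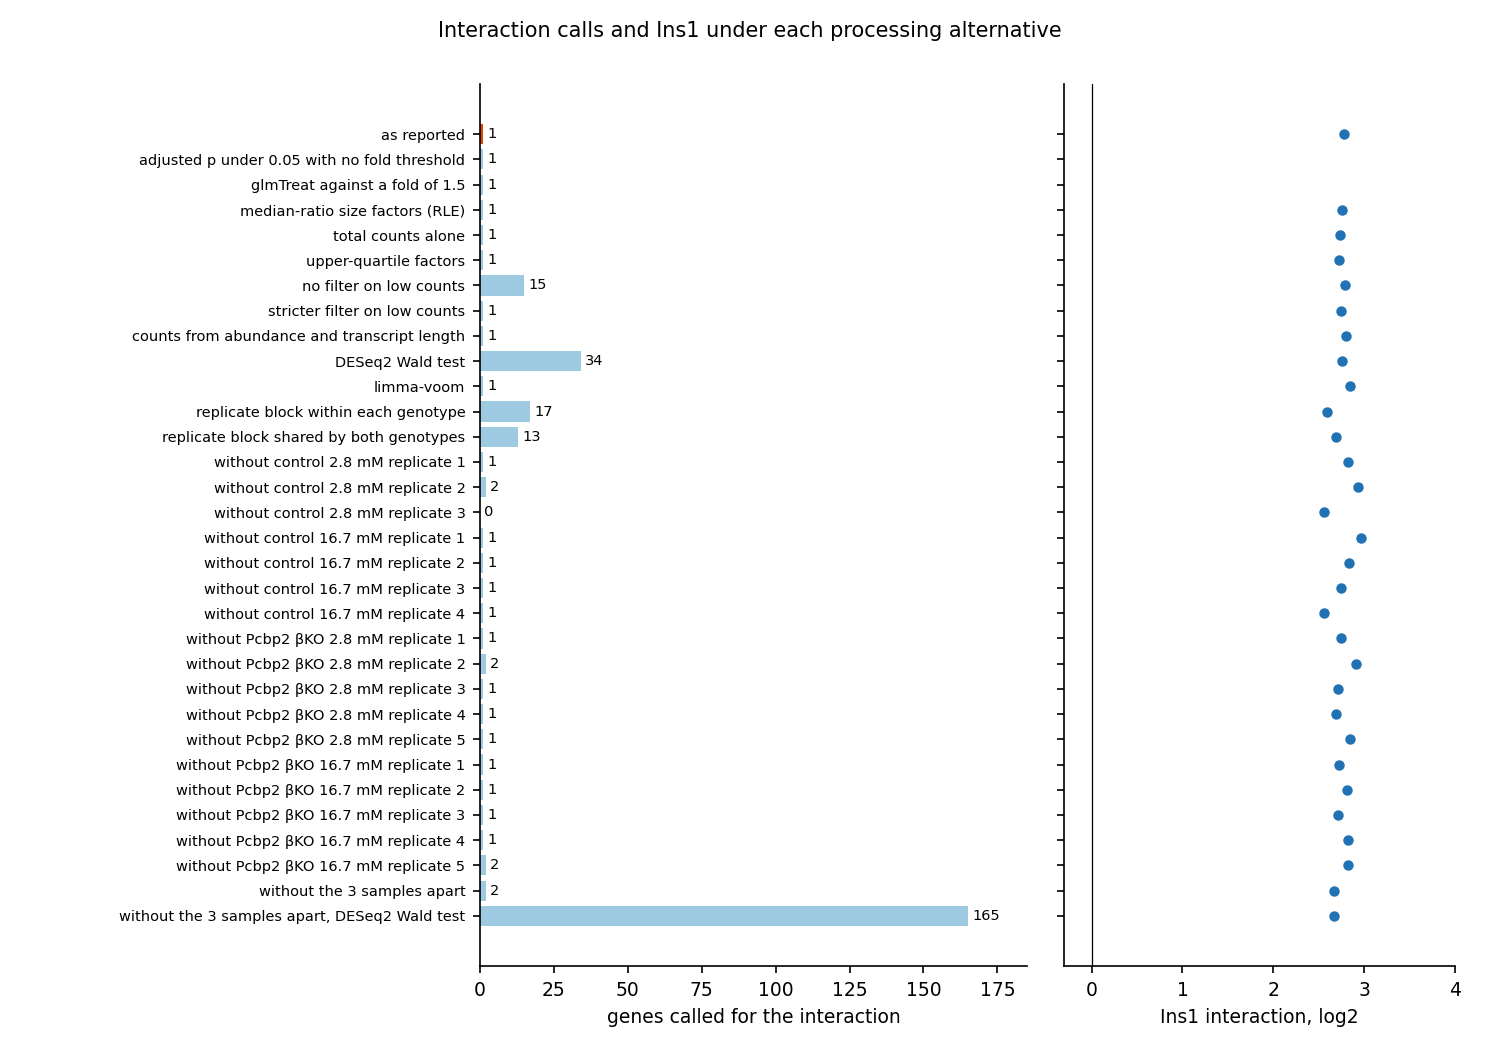
Number of genes called for the interaction (bars, starting at 0) under the reported fit and each alternative, and the log2 interaction of *Ins1* (points; no point where only the threshold changed). Calls number from 0 to 2 in every fit that left out 1 sample and 165 with DESeq2 without the 3 samples apart, while *Ins1* lies between 2.56 and 2.97.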

How the data were processed

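RNA of sorted β cells was sequenced from 17 samples. Per the study's methods, the authors ran Kallisto against the GRCm39 transcriptome. The deposited files give an estimated count for every transcript and sample, with no scaling across libraries. Their second column is TPM, also deposited by the authors, which is scaled by Kallisto for transcript length and to 1 total in every sample. The submitters' processing notes name Kallisto, edgeR and mm39; versions are not given in the sources used here. Kallisto divides reads between near-identical transcripts by a model, so paralogs and pseudogenes are less certain.

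Gene values were sums of estimated counts (142376 transcripts in 55357 genes), rounded, and scaled by TMM. After edgeR's default expression filter 22784 genes were tested. Group means were fitted over all 17 samples with the quasi-likelihood test of edgeR 4.0.16 in R 4.3.3, and 3 contrasts were taken: the glucose response in each genotype and their difference. P-values were adjusted after Benjamini and Hochberg across the 22784 genes. Log2 CPM used a prior count of 2, standard errors came from the estimate and its test statistic, and intervals are 95% intervals. Means are given ± SD and fitted values ± SE. DESeq2 1.42.0 and limma 3.58.1 (voom) served as alternatives, and all 3 tools were tested on simulated data for the interaction. Other alternatives changed the scaling, the filter (none, or at least 5 CPM in at least 3 samples), the threshold, the counts (from abundance and transcript length) and the samples. Tables were handled with Python 3.11.15.

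The study's model held a batch factor, whose levels the labels do not give, so no batch was fitted, and its part in the results was not tested. Replicate numbers were checked for pairing by correlating, across genes, how samples of 1 number departed from the mean of their group. In control cells the correlations were 0.199, 0.123 and 0.258, all over 0.1, so control samples count as paired. The reported fit leaves this pairing out, and counts from fits with the replicate block are given beside it. In knockout cells they ranged from 0.066 to 0.193 and did not all pass. No pair of replicates was near sampling noise, the smallest chi-square per degree of freedom being 38.4.

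Members and lists were chosen with earlier results of these data known. Named were the called genes and the genes of smallest p up to 5 in each direction. The 5 genes with the largest shared response in each direction and genes with opposite calls were named too. For the lists, called genes or other members were named, and these were not always the members with the largest interaction. *Ins2*, *Iapp*, *Txnip*, *Fmo1*, *Matn2*, *Kcnf1*, *Rdh16f1* and several list members were chosen after their values had been seen. Sequences and coordinates came from GRCm39 with GENCODE M39.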

Additional observations from a re-analysis of the deposited data

Results flagged for a closer look

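A test of the difference itself separated the genotypes for *Ins1*, with a log2 interaction of 2.78. Of 84 groups of 4 or 5 samples looked at, 5 held a sample that stood away from the others of its group, and chance alone gives about 1 in 20. Control replicate 4 at 16.7 mM stood away on the first principal component, at 9.9, and in the *Ins1* share of the counts of both insulin genes, at 18.4%. In knockout cells at 16.7 mM, the log2 CPM was -3.73 for *Gm44418* in replicate 2, -3.67 for *ENSMUSG00002075372* in replicate 5, where the other 4 samples had no count, and -4.62 for *Tph1* in replicate 4. The causes were not tested.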

How the results depend on the processing

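For the interaction, 15 genes were called with no filter on low counts, 34 with DESeq2, 0 to 2 when 1 sample was left out, 2 without the 3 samples apart and 165 with DESeq2 without them, the last 2 alternatives having been chosen after seeing the data. With the replicate block, 17 genes were called when the block was fitted within each genotype and 13 when it was shared. In knockout cells, every sample correlated best with the one of its own number, which is a hint from the data and not from the design. Calls of the control response numbered 574 with a test against 1.5-fold, 4837 under total-count scaling, 5024 and 4775 with the replicate block, 4898 and 5412 without the 3 samples apart by edgeR and DESeq2, and 1382 to 4480 when 1 sample was left out. Calls of the knockout response numbered 2416 with a test against 1.5-fold and 3502 with the stricter filter. Pearson's r between the responses was 0.236 with no filter, 0.893 with the stricter filter, 0.900 over genes of at least 5 CPM, and 0.574 to 0.688 when 1 sample was left out. Total-count scaling moved the median of all genes to -0.35 in control cells, -0.47 in knockout cells and -0.10 for the interaction (log2), and the calls to 782 higher and 4055 lower in control cells and 1482 and 6369 in knockout cells, against 1629 and 1524, and 3056 and 2375. Fewer genes tested explain part of the smaller counts under the stricter filter by construction, and the other causes were not tested. The median half-width of the 95% interval of the interaction was 1.03 over all genes and 0.529 over genes of at least 5 CPM (log2); the parts of depth and of replicate spread in it were not tested.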
